A study of Mus musculus with 12 samples.

Results

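The 38 genes described here code for enzymes of mitochondrial fuel oxidation: 7 genes of the pyruvate dehydrogenase complex and its kinases, 15 tricarboxylic acid (TCA) cycle enzymes, 6 NADP isocitrate dehydrogenases, malic enzymes and pyruvate carboxylase, 4 malate-aspartate shuttle and glutamate enzymes, 4 enzymes of branched-chain amino acid breakdown, and 2 enzymes of ketone body use. They were taken by name, and no measured value enters the rule, although earlier results of these data were known when the members were chosen. Of these, 37 were found under their own name and Me1 through its transcript accession, since the design lists it under an older name, and all 38 entered the test among 18869 genes, out of 27596 gene names on the array. Every probe used to represent a member was well above background on all 12 arrays.

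RNA of 4 groups was measured, with 3 arrays each. Soleus, a slow oxidative hind limb muscle, and extensor digitorum longus (EDL), a fast glycolytic one, came from male CD1 mice aged 3 months, and each muscle sample joined the muscles of both hind limbs of 1 mouse. C2C12 myotubes are fused cells of a mouse muscle cell line, harvested 96 hours after differentiation began and enriched by letting mononucleated cells reattach. C2C12 myoblasts are the dividing precursors of the same line, collected at about 50% confluence. No group carried a treatment or an engineered allele; both culture groups come from a single cell line, and the labels do not say whether cultures of a group were grown separately, so the p-values reflect the spread among the arrays of a group and perhaps no more. The series asks how gene expression in C2C12 myoblasts and myotubes compares with that of adult fibres that differ in metabolism and twitch speed.

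Pyruvate made in the cytosol enters the mitochondrial matrix and is turned into acetyl-CoA by the pyruvate dehydrogenase complex, which the Pdk kinases switch off by phosphorylation. The TCA cycle oxidises acetyl-CoA and hands electrons to the respiratory chain, amino acids and ketone bodies feed into it at several points, and the malate-aspartate shuttle carries reducing power from the cytosol into the matrix. Skeletal muscle is a main site of branched-chain amino acid breakdown, and slow fibres are known for a high content of mitochondria.

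Levels are normalized log2 signals, that is log2 of the scanner's processed signal less each array's 75th percentile, with a constant of 9.71 added back. Differences are on the same log2 scale, tested with limma over all genes, and calls required both an adjusted p under 0.05 and a difference of at least 1, which is a 2-fold change. The unscaled 75th percentile was 476 to 640 in soleus, 480 to 613 in EDL, 1065 to 1290 in myotubes and 1110 to 1649 in myoblasts, so scaling by the spike-in control RNA instead moves every gene by -0.19 in soleus minus EDL, -1.03 for EDL minus myotube, -1.22 for soleus minus myotube and -0.37 for myotube minus myoblast. Levels of different genes come from different probes and are not compared, and the small number of arrays limits the precision.

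Skeletal muscle markers were well above background in all 4 groups. Markers of slow fibres had 5 of 6 genes called higher in soleus than in EDL and none lower, and markers of fast fibres had 4 of 6 called lower and none higher. Myotubes had 6 of 6 dividing cell markers called lower than myoblasts. The muscles also hold other cells: all 7 endothelial markers were called higher in EDL than in myotubes (median difference 8.60) and in soleus than in myotubes (8.64), with a summed log2 signal of 15.63 to 15.66 in soleus, 15.45 to 15.47 in EDL and 8.78 to 9.27 in myotubes; 4 of them, Pecam1, Cdh5, Tie1 and Emcn, stayed near background on all 3 myotube arrays by the scanner's flag. The same held for 6 of 8 macrophage and leukocyte markers and all 8 fibroblast markers in either muscle. The part of these cells in the differences between muscle and culture was not tested, and fewer cells of a type and less RNA per cell cannot be told apart in such samples.

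The promoters of the members that the results turn on are given here so that their sequence can be read beside the values. They are RefSeq windows of 300 bases on build GRCm38.p6, from 250 bases before to 50 after an annotated start, printed 5′ to 3′ on the gene's strand. The first set holds the member that separated muscle from culture most (Bckdhb) and both members that separated soleus from EDL most (Idh2, and Bdh1 at the upstream of its annotated starts). The second holds Sdhd and Got1, whose windows contain the half-site AAGGTCA of the estrogen-related receptors. Capitals mark matches to any of the motifs searched, on either strand.
Bckdhb: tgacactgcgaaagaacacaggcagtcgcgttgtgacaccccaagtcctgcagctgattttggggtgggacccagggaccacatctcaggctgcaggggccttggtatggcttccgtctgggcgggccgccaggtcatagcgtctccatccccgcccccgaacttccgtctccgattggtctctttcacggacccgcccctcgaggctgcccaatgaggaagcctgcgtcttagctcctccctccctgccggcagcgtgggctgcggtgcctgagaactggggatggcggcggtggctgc
Idh2: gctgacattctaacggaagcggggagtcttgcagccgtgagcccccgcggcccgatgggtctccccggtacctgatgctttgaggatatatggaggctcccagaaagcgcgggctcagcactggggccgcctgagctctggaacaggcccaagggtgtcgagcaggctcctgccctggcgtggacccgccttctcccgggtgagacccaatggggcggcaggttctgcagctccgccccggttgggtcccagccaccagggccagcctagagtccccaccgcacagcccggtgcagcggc
Bdh1: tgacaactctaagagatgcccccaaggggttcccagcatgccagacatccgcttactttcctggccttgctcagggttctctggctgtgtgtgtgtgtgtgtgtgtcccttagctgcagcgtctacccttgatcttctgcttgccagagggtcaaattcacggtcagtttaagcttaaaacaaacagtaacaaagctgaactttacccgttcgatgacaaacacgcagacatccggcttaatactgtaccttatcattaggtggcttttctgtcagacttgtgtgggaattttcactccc
Sdhd: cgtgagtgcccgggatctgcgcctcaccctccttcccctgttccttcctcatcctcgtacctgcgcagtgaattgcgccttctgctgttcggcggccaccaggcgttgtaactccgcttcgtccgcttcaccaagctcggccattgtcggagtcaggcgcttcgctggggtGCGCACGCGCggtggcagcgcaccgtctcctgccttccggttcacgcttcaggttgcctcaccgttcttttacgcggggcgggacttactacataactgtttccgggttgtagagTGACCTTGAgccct
Got1: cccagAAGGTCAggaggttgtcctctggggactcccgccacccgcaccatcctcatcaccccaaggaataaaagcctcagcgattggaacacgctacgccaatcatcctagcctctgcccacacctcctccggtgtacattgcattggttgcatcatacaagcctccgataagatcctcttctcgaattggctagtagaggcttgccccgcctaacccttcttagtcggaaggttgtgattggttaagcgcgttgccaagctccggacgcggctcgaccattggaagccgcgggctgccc

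These windows lie at chr9:83924887-83925186 on the plus strand (Bckdhb), chr7:80115301-80115600 on the minus strand (Idh2), chr16:31422047-31422346 on the plus strand (Bdh1), chr9:50603800-50604099 on the minus strand (Sdhd) and chr19:43524556-43524855 on the minus strand (Got1). Windows were found for 34 of the 38 members, 46 windows in all. The motifs searched were AAGGTCA, its longer form TNAAGGTCA, the NRF1 motif (GCGCA, any base, GCGC), CCGGAAGT of GABP and the MEF2 motif (CTA, any 4 bases, TAG), each on both strands; the longer form includes the shorter. AAGGTCA was in 3 of the members' 46 windows (Got1, Ogdh and Sdhd), against 4.72% of all 32851 windows. TNAAGGTCA was in 1 of the 46 (Sdhd), against 1.28%. The NRF1 motif was in 4 of the 46 (Dld, Sdha, Sdhd and Sucla2), against 4.60% of all windows. CCGGAAGT was in 1 of the 46 (Dlst), against 3.89%, and the MEF2 motif in none, against 3.69%. The windows of Bckdhb, Idh2 and Bdh1 shown above hold none of these letters. CpG pairs numbered 20 in the Bckdhb window, 20 in Idh2, 7 in the upstream Bdh1 window and 29 in Sdhd, against a median of 20 over the members' windows and 7 over all windows.

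On the 75th percentile scale, most of the 38 genes were higher in adult muscle than in myotubes, and the share called between soleus and EDL was close to that among all genes. In EDL minus myotube, 32 members were called higher and 2 lower, where 28.4% of all genes tested were called higher and 19.6% lower, and the members' median difference was 1.97 against 0.23 for all genes. In soleus minus myotube, 31 were called higher and 2 lower, where 26.1% and 19.3% of all genes were, and the median was 2.00 against 0.16. These 2 comparisons share the myotube arrays. In soleus minus EDL, 3 members were called higher and 1 lower, where 4.94% and 4.80% of all genes were, and the members' median was -0.0071. In myotube minus myoblast, 9 were called higher and 3 lower, where 19.3% and 16.2% of all genes were, and the median was 0.19. On this scale the group mean was highest in soleus for 15 members, in EDL for 18, in myotubes for 1 and in myoblasts for 4.

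Spike-in scaling shifts every difference of a comparison by the same amount, which leaves the order of the genes. It also changes the spread among the arrays of a group, so the counts move through both. It gave 16 members higher and 5 lower in EDL minus myotube, where 13.5% of all genes were called higher and 41.8% lower, with a median of 0.94 for the members and -0.80 for all genes. It gave 16 higher and 5 lower in soleus minus myotube, where 11.8% and 49.0% of all genes were, with medians of 0.77 and -1.07. Between the muscles it left Idh2 and Bdh1, called higher, where 1.84% of all genes were called higher and 2.97% lower. Fewer genes were called lower there than on the 75th percentile scale (4.80%), although the shift of -0.19 was downwards. In myotube minus myoblast 4 were higher and 5 lower, where 12.5% and 21.4% of all genes were, and the members' median turned to -0.18. The group mean was then highest in soleus for 6 members, in EDL for 25, in myotubes for 2 and in myoblasts for 5.

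**Figure D1:**
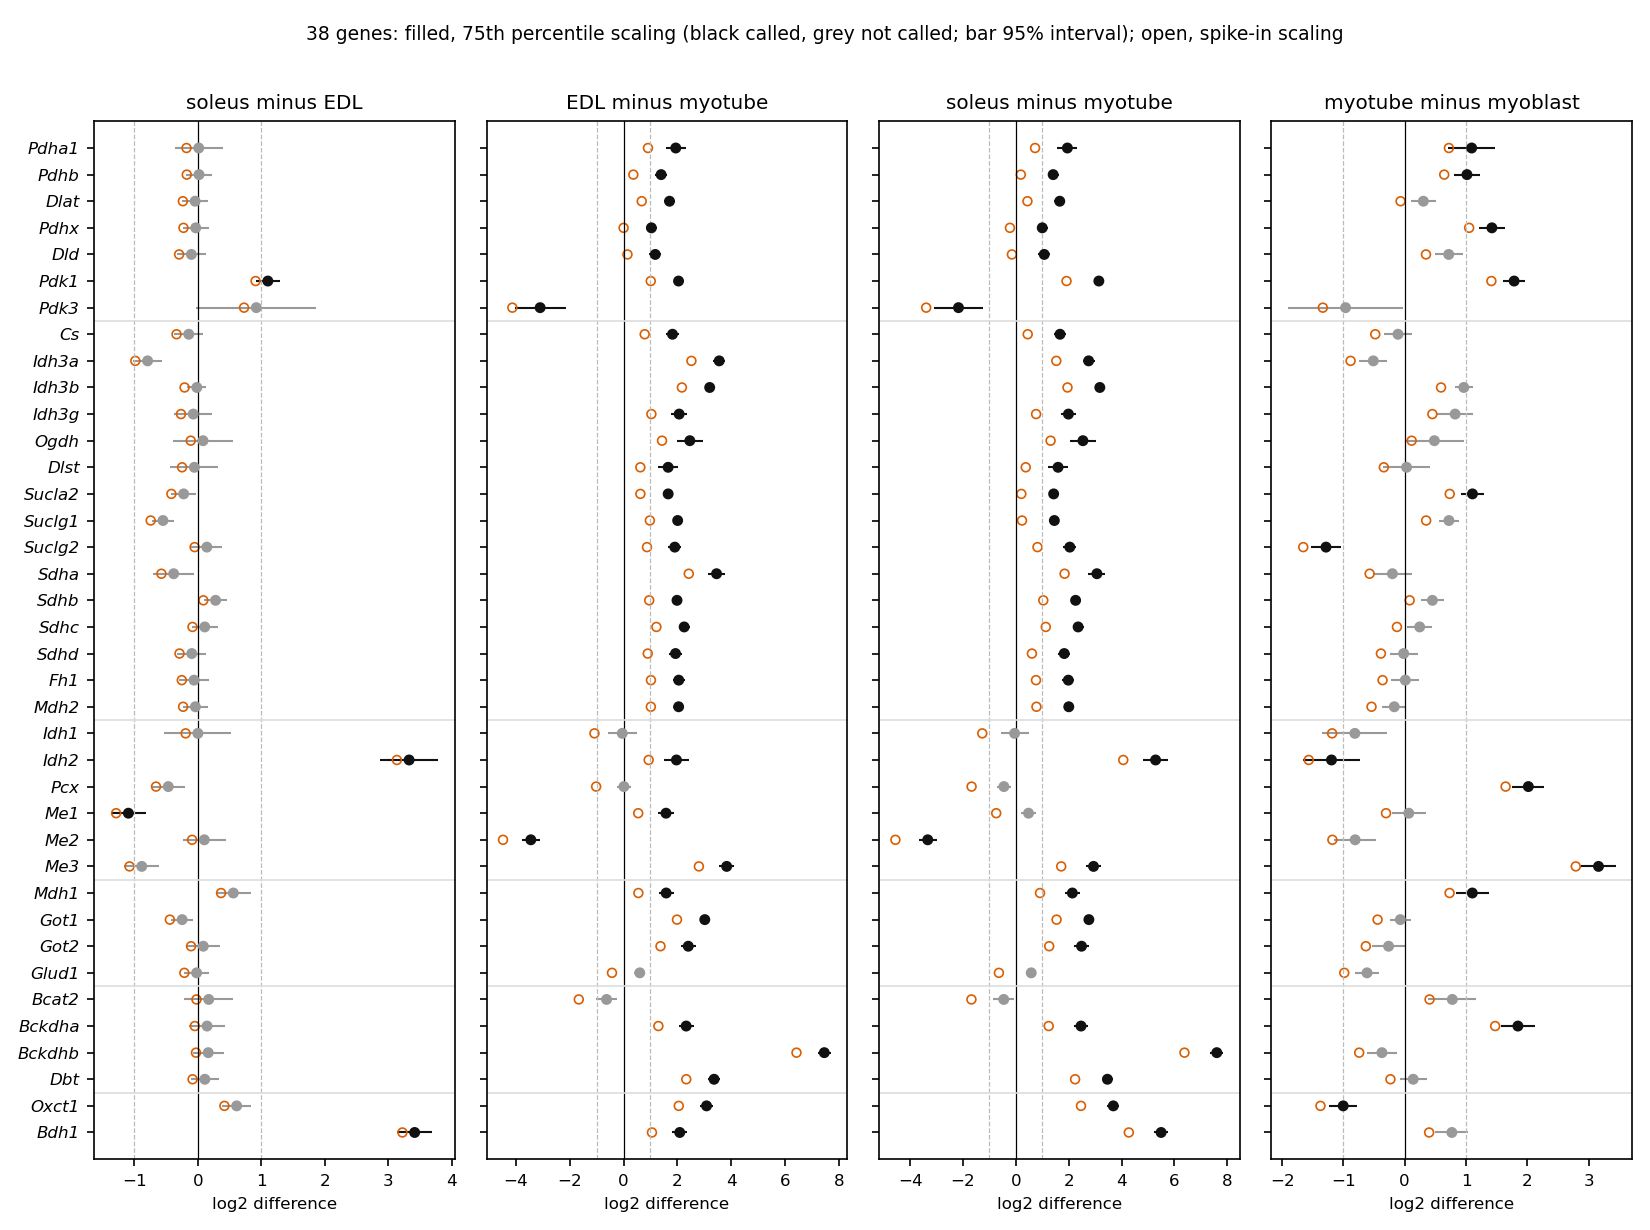
Log2 differences of the 38 genes in 4 comparisons, with filled points for 75th percentile scaling (black where called, grey where not), bars for the 95% interval and open circles for spike-in scaling; dashed lines mark a difference of 1 in either direction. Most filled points lie right of 1 in both muscle minus myotube panels, Bckdhb farthest at 7.44 and 7.61, while in soleus minus EDL nearly all lie near 0 and Idh2 and Bdh1 stand at 3.33 and 3.41.

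All 5 subunit genes of the pyruvate dehydrogenase complex, read by their brightest probes, were higher in each muscle than in myotubes on the 75th percentile scale. None of these probes was called with spike-in scaling. Pdha1 and Pdhb code for the decarboxylating E1 component, Dlat for the acetyl-carrying E2, Dld for the E3 dehydrogenase that the complex shares with other complexes, and Pdhx for the protein that binds E3 to the core. Their differences ran from 1.03 (Pdhx) to 1.94 (Pdha1) in EDL minus myotube and from 1.00 (Pdhx) to 1.95 (Pdha1) in soleus minus myotube. With spike-in scaling these brightest probes ran from 0.0029 (Pdhx) to 0.91 (Pdha1) and from -0.22 (Pdhx) to 0.73 (Pdha1). Other kept probes, on the 75th percentile scale only, ran from 0.81 (Dld) to 3.50 (Dlat) and from 0.49 (Dld) to 2.80 (Dlat). Not every kept probe called Pdha1 and Dld in EDL minus myotube, or Dld in soleus minus myotube. Between soleus and EDL the brightest probes of the 5 subunits differed by -0.10 (Dld) to 0.019 (Pdhb). The widest 95% interval, that of Pdha1, ran from -0.37 to 0.39. Other kept probes ran from -0.70 (Dlat) to 0.34 (Pdha1) there. Myotubes exceeded myoblasts in Pdhx (1.42, SE 0.09), Pdha1 (1.09, SE 0.17) and Pdhb (1.02, SE 0.09), all called by limma's adjusted p (3.1e-07, 0.00023 and 4.8e-06), and none was called with spike-in scaling. The ratio of Pdhx to Dlat within arrays was higher in myotubes than in myoblasts by 1.12 on the log2 scale (95% interval 0.77 to 1.47), and by 0.69 to 1.20 over all pairs of their kept probes. Ratios given here and further on use the brightest probe of each gene, and the range over pairs of kept probes, added after seeing the data, is given where there are several.

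The 2 pyruvate dehydrogenase kinases of the set ran in opposite directions between each muscle and myotubes. Pdk1 had levels of 14.92, 14.85 and 14.83 in soleus, 13.87, 13.63 and 13.80 in EDL, 11.79, 11.70 and 11.69 in myotubes, and 10.01, 9.96 and 9.85 in myoblasts. No 2 groups overlapped, and the order soleus, EDL, myotube, myoblast ran downwards. The differences were 1.10 in soleus minus EDL (SE 0.08, limma adjusted p = 5.1e-06), 2.04 for EDL minus myotube (5.5e-09), 3.14 for soleus minus myotube (2.9e-10) and 1.79 for myotube minus myoblast (2.3e-08). The soleus minus EDL call is lost with spike-in scaling (0.91, adjusted p = 0.19), with normexp background correction (0.69) and with the mean over probes (0.99). The dimmer Pdk1 probe differed by 0.88 in soleus minus EDL and by -0.41 in myotube minus myoblast, against the 1.79 of the brighter probe; the culture difference thus changes sign with the probe.

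Pdk3, a kinase with high activity towards the complex, had levels of 8.21, 6.21 and 6.45 in soleus, 5.88, 6.33 and 5.89 in EDL, 9.21, 9.08 and 9.09 in myotubes, and 10.10, 9.99 and 10.18 in myoblasts. Both muscles lay below both cultures on every array, and soleus replicate 1 stood apart from the other soleus arrays. EDL was lower than myotubes by 3.09 on the log2 scale (difference -3.09, SE 0.42, limma adjusted p = 7.0e-05, 8.52-fold), and soleus minus myotube was -2.17 (adjusted p = 0.00092), or -2.80 without soleus replicate 1 and -0.89, not called, with normexp background correction. Myotube minus myoblast was -0.96, not called, and -1.34, called lower, with spike-in scaling. Soleus minus EDL was 0.92 (adjusted p = 0.13), 0.29 without soleus replicate 1, and 2.33, -0.12 and 0.55 within slides 1, 2 and 3. The other Pdk3 probe gave 0.47 in soleus minus EDL, -2.85 in EDL minus myotube and -2.38 in soleus minus myotube. Within arrays the ratio of Pdk3 to Pdk1 differed by -5.13 in EDL minus myotube (95% interval -6.19 to -4.07, and -5.13 to -3.60 over the pairs of kept probes). With normexp background correction Pdk3 and Pdk1 differed by -1.73 and 1.98 there, a choice that the interval leaves out.

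By their brightest probes, all 15 TCA cycle enzymes were called higher in EDL than in myotubes and in soleus than in myotubes. Of all genes tested, 28.4% and 26.1% were called higher in these comparisons. Differences of the brightest probes ran from 1.65 to 3.55 in EDL minus myotube (median 2.04) and from 1.43 to 3.18 in soleus minus myotube (median 2.00). Dlst was not called by every one of its 3 kept probes, which gave 0.52 to 1.65 and 0.74 to 1.60. Every array of each muscle lay above every myotube array for each of these enzymes. The share of all genes tested that were separated in this way was not counted. With spike-in scaling 7 of the 15 stayed called in EDL minus myotube (Idh3a, Idh3b, Ogdh, Sdha, Sdhc, Fh1 and Mdh2) and 6 in soleus minus myotube (Idh3a, Idh3b, Ogdh, Sdha, Sdhb and Sdhc), and none was called lower. With normexp background correction Dlst (1.10), Sucla2 (0.98) and Suclg1 (0.99) lost the call in soleus minus myotube.

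The 3 subunits of NAD isocitrate dehydrogenase, a control point of the cycle, did not move alike. Idh3a, the catalytic subunit, had levels of 15.50, 15.21 and 15.33 in soleus, 16.30, 16.09 and 16.02 in EDL, 12.65, 12.53 and 12.59 in myotubes, and 13.19, 13.00 and 13.11 in myoblasts. The 4 groups were fully separated, with EDL highest and myotubes lowest. EDL exceeded myotubes by 3.55 (SE 0.10, limma adjusted p = 4.7e-10, 11.7-fold), the largest difference among the 15 enzymes. Soleus minus EDL was -0.79 (adjusted p = 0.00024), short of the required 2-fold, and it passed with normexp background correction (-1.19). Idh3b, a subunit that assembles with it, differed by 3.19 in EDL minus myotube and by -0.015 in soleus minus EDL, and Idh3g, the regulatory subunit, by 2.06 and -0.072. The ratio of Idh3b to Idh3a differed by 0.78 in soleus minus EDL (95% interval 0.53 to 1.02) and by 1.48 in myotube minus myoblast (1.24 to 1.72).

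Succinate dehydrogenase links the cycle to the respiratory chain. Its flavoprotein subunit Sdha had levels of 14.36, 14.20 and 14.15 in soleus, 14.70, 14.61 and 14.54 in EDL, 11.49, 10.96 and 11.06 in myotubes, and 11.55, 11.21 and 11.36 in myoblasts. The muscles lay far above the cultures, and the cultures overlapped. The difference was 3.45 in EDL minus myotube (SE 0.14, limma adjusted p = 6.3e-09) and 3.07 in soleus minus myotube (1.6e-08), and the other Sdha probe gave 2.00 and 1.78. The iron-sulfur subunit Sdhb and the membrane anchors Sdhc and Sdhd differed by 1.98, 2.25 and 1.93 in EDL minus myotube, against 2.00 for the other Sdha probe. Between the muscles Sdhb was 0.28 (adjusted p = 0.026) and Sdha -0.38 (0.071), neither of them called.

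Succinyl-CoA synthetase joins a common alpha subunit, Suclg1, to a beta subunit that sets the nucleotide: Sucla2 for ADP and Suclg2 for GDP. Suclg2 had levels of 11.08, 10.99 and 11.28 in soleus, 11.11, 10.91 and 10.89 in EDL, 9.16, 8.94 and 9.12 in myotubes, and 10.44, 10.23 and 10.40 in myoblasts. The muscles overlapped each other, myotubes were lowest, and myoblasts lay between. It fell by 1.28 on the log2 scale in myotubes relative to myoblasts (difference -1.28, SE 0.11, limma adjusted p = 2.5e-06, and -1.65 with spike-in scaling), while Sucla2 was higher in myotubes by 1.11 (1.3e-06), a call that spike-in scaling did not keep (0.74). The ratio of Suclg2 to Sucla2 within arrays thus differed by -2.39 in myotube minus myoblast (95% interval -2.70 to -2.08, and -2.45 to -2.23 over the pairs of kept probes). In EDL minus myotube that ratio differed by 0.25, with an interval from -0.063 to 0.55, and by -1.30 to 0.25 over the pairs of kept probes.

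The remaining cycle enzymes are given by their brightest probes. Cs, which condenses acetyl-CoA with oxaloacetate, differed by 1.81 in EDL minus myotube and 1.67 in soleus minus myotube. Ogdh and Dlst, of the 2-oxoglutarate dehydrogenase complex, differed by 2.46 and 1.65 in EDL minus myotube, Fh1, the fumarase, by 2.05, and Mdh2, the mitochondrial malate dehydrogenase, by 2.04. In myotube minus myoblast, 13 of the 15 enzymes were not called, with values of -0.51 (Idh3a) to 0.96 (Idh3b).

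The NADP isocitrate dehydrogenases differed from each other between the muscles. Idh2, the mitochondrial form, had levels of 15.92, 15.62 and 15.72 in soleus, 12.62, 12.17 and 12.49 in EDL, 10.80, 10.32 and 10.28 in myotubes, and 12.05, 11.59 and 11.34 in myoblasts. Soleus stood far above all other arrays and myotubes were lowest. Soleus exceeded EDL by 3.33 (95% interval 2.86 to 3.79, limma adjusted p = 1.4e-06, 10.0-fold), with 3.30, 3.45 and 3.23 within the 3 slides and 3.13 with spike-in scaling. EDL exceeded myotubes by 1.96 (9.5e-06, and 0.93, not called, with spike-in scaling), soleus exceeded myotubes by 5.29 (4.4e-09), and Idh2 was lower in myotubes than in myoblasts by 1.19 on the log2 scale (difference -1.19, adjusted p = 0.00050). Idh1, the cytosolic form, differed by 0.0011 in soleus minus EDL (95% interval -0.53 to 0.53) and by -0.047 in EDL minus myotube (-0.58 to 0.48), or -1.08 with spike-in scaling, when it was called lower. It differed by -0.046 in soleus minus myotube and by -0.81 in myotube minus myoblast, neither called, and by -1.27 and -1.18, both called lower, with spike-in scaling.

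The 3 malic enzymes, which turn malate into pyruvate, showed 3 patterns. Me3, a mitochondrial NADP enzyme, had levels of 11.99, 11.95 and 11.77 in soleus, 12.94, 12.56 and 12.86 in EDL, 9.11, 8.86 and 8.92 in myotubes, and 5.70, 5.95 and 5.75 in myoblasts. The 4 groups were separated at every step, and EDL exceeded myotubes by 3.82 (SE 0.12, limma adjusted p = 1.1e-09), while myotubes exceeded myoblasts by 3.16 (6.7e-09), or by 1.26, not called, with normexp background correction. Of its 4 kept probes the 3 dimmer ones gave 0.26 to 2.78 in EDL minus myotube, and 1 of them gave -0.32 in soleus minus myotube, against the 2.94 of the brightest; none of those 3 passed the scanner's background flag in myoblasts.

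Me2, the mitochondrial NAD enzyme, had levels of 7.51, 7.56 and 7.83 in soleus, 7.33, 7.69 and 7.58 in EDL, 10.81, 11.03 and 11.06 in myotubes, and 11.54, 11.76 and 12.03 in myoblasts. Every muscle array lay below every culture array. EDL minus myotube was -3.44 (SE 0.15, limma adjusted p = 1.1e-08, 10.8-fold lower) and soleus minus myotube -3.33 (1.4e-08), and another probe gave -4.24 and -3.98. Myotube minus myoblast was -0.81, not called, and another probe, not well above background on any muscle array, gave 1.94 there. The ratio of Me2 to Me3 within arrays differed by -7.26 in EDL minus myotube (95% interval -7.83 to -6.69, and -8.06 to -3.70 over the pairs of kept probes). With normexp background correction Me2 and Me3 differed by -2.87 and 3.57 there, a choice that the interval leaves out.

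Me1, the cytosolic NADP enzyme, had levels of 12.39, 12.52 and 12.56 in soleus, 13.55, 13.64 and 13.56 in EDL, 11.81, 12.15 and 12.06 in myotubes, and 11.71, 11.97 and 12.14 in myoblasts. EDL was the high group and the cultures overlapped. Me1 was the 1 member called lower in soleus than in EDL (difference -1.09, SE 0.12, limma adjusted p = 9.8e-05), and the call is lost with spike-in scaling (-1.29, adjusted p = 0.12). Pcx, pyruvate carboxylase, which refills oxaloacetate, had levels of 12.60, 13.01 and 12.92 in soleus, 13.20, 13.33 and 13.40 in EDL, 13.20, 13.41 and 13.28 in myotubes, and 11.22, 11.39 and 11.21 in myoblasts. Myoblasts were the low group, EDL overlapped myotubes, and soleus lay below both. Myotubes exceeded myoblasts by 2.02 (SE 0.12, adjusted p = 1.3e-07), and EDL minus myotube was 0.015 (95% interval -0.25 to 0.28), or -1.02 with spike-in scaling, when Pcx was called lower. Soleus minus myotube was -0.45, not called, and -1.67, called lower, with spike-in scaling.

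**Figure D2:**
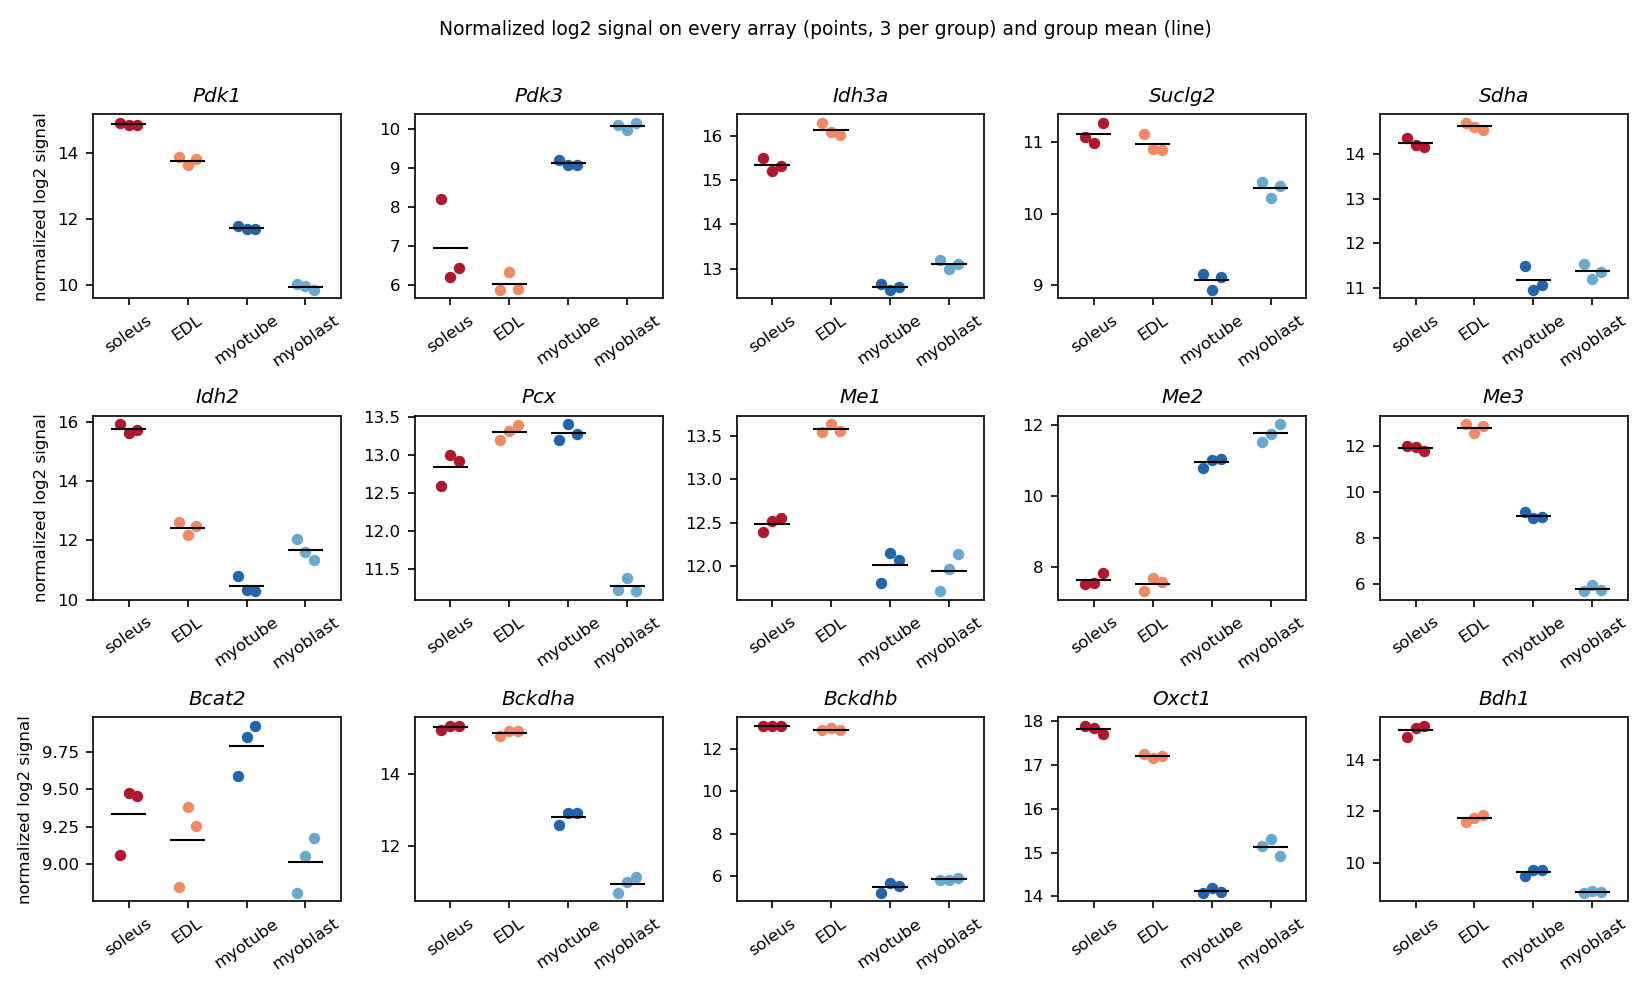
Normalized log2 signal of 15 genes on every array (points, 3 per group) with the group mean (line), on an axis of its own for each gene; groups run from soleus, EDL and myotube to myoblast. Bckdhb, Sdha and Bckdha separate muscle from culture, Idh2 and Bdh1 single out soleus, Me2 and Pdk3 run the other way, and 1 soleus array of Pdk3 stands at 8.21 above the other soleus arrays.

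Of the 4 shuttle and glutamate enzymes, 3 were called higher in each muscle than in myotubes, and none lower. Got1 and Got2, the cytosolic and mitochondrial aspartate aminotransferases, differed by 3.01 (SE 0.08, limma adjusted p = 1.8e-10) and 2.40 (2.8e-08) in EDL minus myotube and by 2.77 and 2.49 in soleus minus myotube, and all 4 values stayed called with spike-in scaling (1.98, 1.37, 1.54 and 1.26). Mdh1, the cytosolic malate dehydrogenase, differed by 1.58 and 2.14 in these comparisons (0.55 and 0.92, not called, with spike-in scaling) and by 1.10 in myotube minus myoblast (0.73, not called, with spike-in scaling), where 1 of its other probes gave 0.22. Its ratio to Mdh2 differed by 0.60 in soleus minus EDL (95% interval 0.35 to 0.85, and 0.60 to 1.24 over the pairs of kept probes). Glud1, glutamate dehydrogenase, was called in no comparison, with 0.60 in EDL minus myotube and -0.43 with spike-in scaling.

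Of the 38 members, Bckdhb had the largest difference between muscle and myotubes on the scale used here. It codes for the beta subunit of the decarboxylase of the branched-chain 2-oxoacid dehydrogenase complex, the committed step of leucine, isoleucine and valine breakdown. Its levels were 13.08, 13.06 and 13.06 in soleus, 12.88, 12.97 and 12.87 in EDL, 5.20, 5.67 and 5.51 in myotubes, and 5.78, 5.82 and 5.89 in myoblasts. The muscles lay far above the cultures. EDL exceeded myotubes by 7.44 (95% interval 7.20 to 7.69, limma adjusted p = 7.6e-12, 174-fold) and soleus exceeded them by 7.61 (7.36 to 7.85, 7.4e-12, 195-fold), and spike-in scaling gave 6.41 and 6.38. The Bckdhb signal in both cultures was close to background, which limits these folds. Normexp background correction gave 5.94 and 5.79, both called. Myotube minus myoblast was -0.37, not called.

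Bckdha, the alpha subunit of the same decarboxylase, had levels of 15.20, 15.31 and 15.32 in soleus, 15.04, 15.17 and 15.18 in EDL, 12.59, 12.92 and 12.91 in myotubes, and 10.72, 11.01 and 11.15 in myoblasts. Each culture lay apart from the other and below the muscles. It was higher in EDL than in myotubes by 2.32 (SE 0.13, limma adjusted p = 4.8e-08) and in myotubes than in myoblasts by 1.85 (4.2e-07). The ratio of Bckdhb to Bckdha differed by 5.12 in EDL minus myotube (95% interval 4.92 to 5.32, and 4.54 to 5.72 over the pairs of kept probes). It differed by -2.22 in myotube minus myoblast (-2.42 to -2.02) and by 0.018 in soleus minus EDL (-0.19 to 0.22). These intervals leave out the choice of background correction. With normexp Bckdhb and Bckdha differed by 5.94 and 2.25 in EDL minus myotube, and by -1.09 and 1.95 in myotube minus myoblast. Dbt, the E2 core of the same complex, differed by 3.36 for EDL minus myotube, 3.47 for soleus minus myotube and 0.14 for myotube minus myoblast. Dlat, the E2 of the pyruvate complex, differed by 1.70 in EDL minus myotube with its brighter probe and by 3.50 with the other.

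Bcat2, the mitochondrial transaminase that takes the amino group first, did not follow them. Its levels were 9.06, 9.48 and 9.45 in soleus, 8.85, 9.38 and 9.25 in EDL, 9.59, 9.85 and 9.93 in myotubes, and 8.81, 9.06 and 9.17 in myoblasts. Myotubes were the high group and the muscles overlapped each other and the myoblasts. EDL minus myotube was -0.63 (limma adjusted p = 0.0079), short of the required 2-fold, and -1.66 with spike-in scaling, when it was called lower. Soleus minus myotube was -0.46, not called, and -1.68, called lower, with spike-in scaling. Its 3 kept probes gave -1.22, called, to 0.047 in EDL minus myotube, and -0.68 to 0.014, none called, in soleus minus myotube. The ratio of Bcat2 to Bckdha differed by -2.95 in EDL minus myotube (95% interval -3.21 to -2.69, and -3.54 to -1.67 over the pairs of kept probes).

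**Figure D3:**
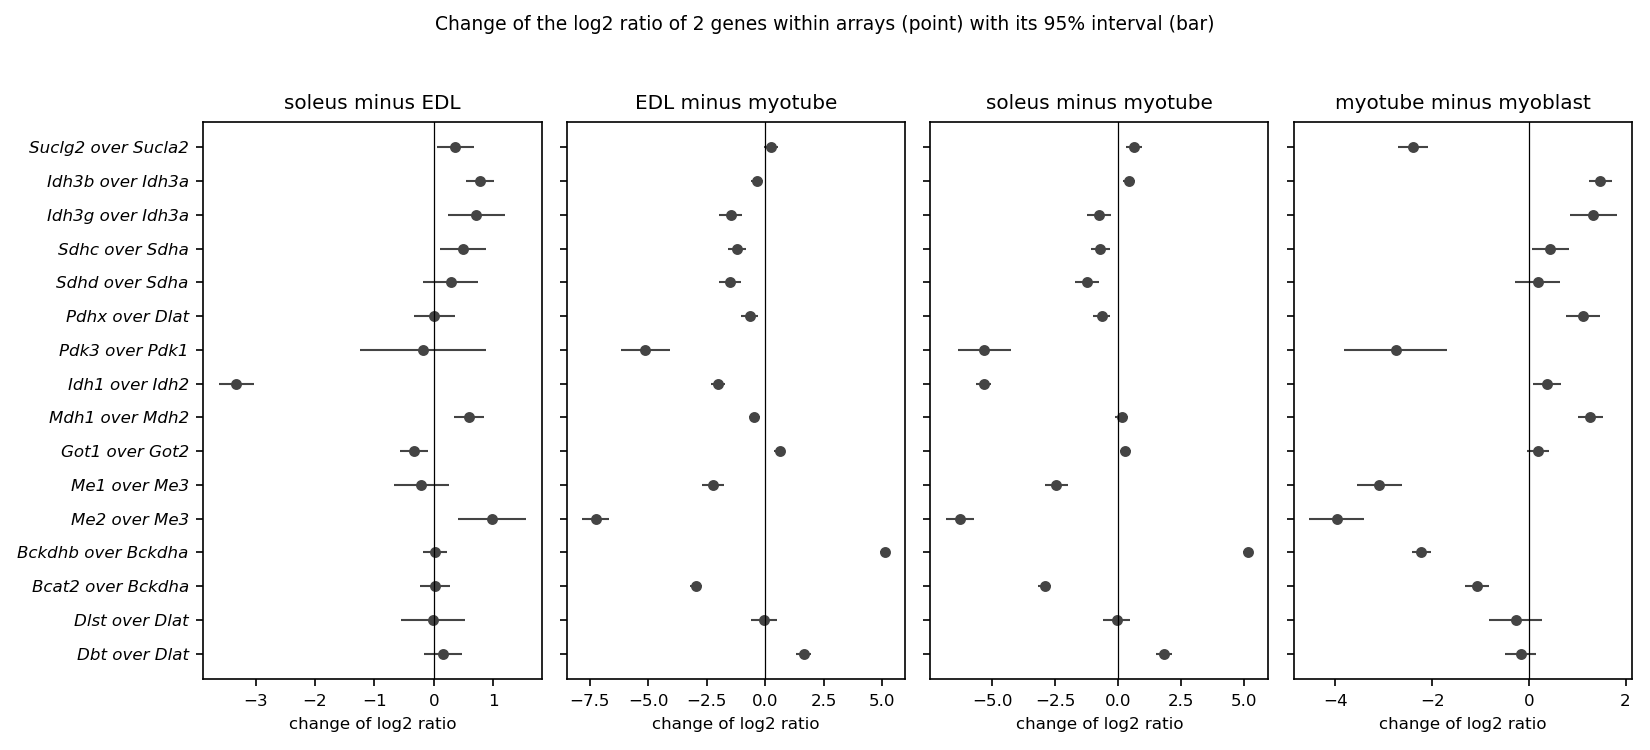
Change of the log2 ratio of 2 genes within arrays (points) with 95% intervals (bars) in 4 comparisons. Each gene is read by its brightest kept probe. A scaling factor of an array cancels in such a ratio, while the choice of background correction does not. Me2 over Me3 and Pdk3 over Pdk1 lie far left in the muscle minus myotube panels, Bckdhb over Bckdha far right, Idh1 over Idh2 left at -3.33 in soleus minus EDL, and Suclg2 over Sucla2 left at -2.39 in myotube minus myoblast.

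Both ketone body genes were higher in muscle, and Bdh1 had the widest gap between the muscles. Bdh1, 3-hydroxybutyrate dehydrogenase, turns the ketone body 3-hydroxybutyrate into acetoacetate. Its levels were 14.91, 15.22 and 15.33 in soleus, 11.60, 11.75 and 11.85 in EDL, 9.49, 9.74 and 9.72 in myotubes, and 8.84, 8.91 and 8.89 in myoblasts. The groups were separated at every step. Soleus exceeded EDL by 3.41 (95% interval 3.14 to 3.69, limma adjusted p = 4.2e-08, 10.7-fold), with 3.30, 3.47 and 3.47 within the 3 slides and 3.22 with spike-in scaling, and EDL exceeded myotubes by 2.08 (8.5e-08).

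Oxct1, the transferase that activates acetoacetate for use, had levels of 17.89, 17.85 and 17.70 in soleus, 17.24, 17.15 and 17.21 in EDL, 14.08, 14.19 and 14.11 in myotubes, and 15.16, 15.31 and 14.92 in myoblasts. Myotubes were lowest and soleus highest, with no overlap. Soleus exceeded myotubes by 3.69 (SE 0.10, limma adjusted p = 4.3e-10) and EDL did so by 3.08 (1.4e-09), while soleus minus EDL was 0.61 (0.0013), short of the required 2-fold. Myotube minus myoblast was -1.003 (1.1e-05), called lower at the edge of the threshold, and 6 of the fits that leave arrays out put it between -0.99 and -0.91.

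Markers of fat cells moved with Idh2 and Bdh1 between the muscles: 4 of 6 adipocyte markers tested were called higher in soleus than in EDL (median 1.27), with a summed log2 signal of 16.81 to 17.01 in soleus and 16.30 to 16.39 in EDL, and none of these calls held with spike-in scaling. Of 5 Schwann cell markers 2 were called higher (median 0.90). Of the 2 brown adipocyte markers, 1 was called higher (Cidea, 3.28) and 1 lower (Ucp1, whose signal was not well above background on any soleus or EDL array, so no fold is given). Their part in the soleus differences was not tested.

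Where a member had several kept probes, they mostly pointed the same way. Of 22 such members, all probes had 1 sign in 19 for soleus minus EDL, in 21 for EDL minus myotube, in 20 for soleus minus myotube and in 16 for myotube minus myoblast. Every probe made the call for 2 of 3 called members in soleus minus EDL, 16 of 21 for EDL minus myotube, 17 of 20 for soleus minus myotube and 5 of 10 for myotube minus myoblast. The exceptions were Pdk1 in soleus minus EDL, Dld, Dlst, Me3, Pdha1 and Pdk1 in EDL minus myotube, and Dld, Dlst and Me3 in soleus minus myotube. In myotube minus myoblast they were Mdh1, Oxct1, Pdha1, Pdhx and Pdk1. The array design places the probes used for Idh2 at chr7:79971406-79971465, Bdh1 at chr16:31377039-31377098, Idh3a at chr9:54401698-54401757 and Sdha at chr13:74788700-74788759 in mouse build mm8; whether these lie in coding exons or untranslated regions was not looked up, since the annotation at hand is of another build.

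**Figure D4:**
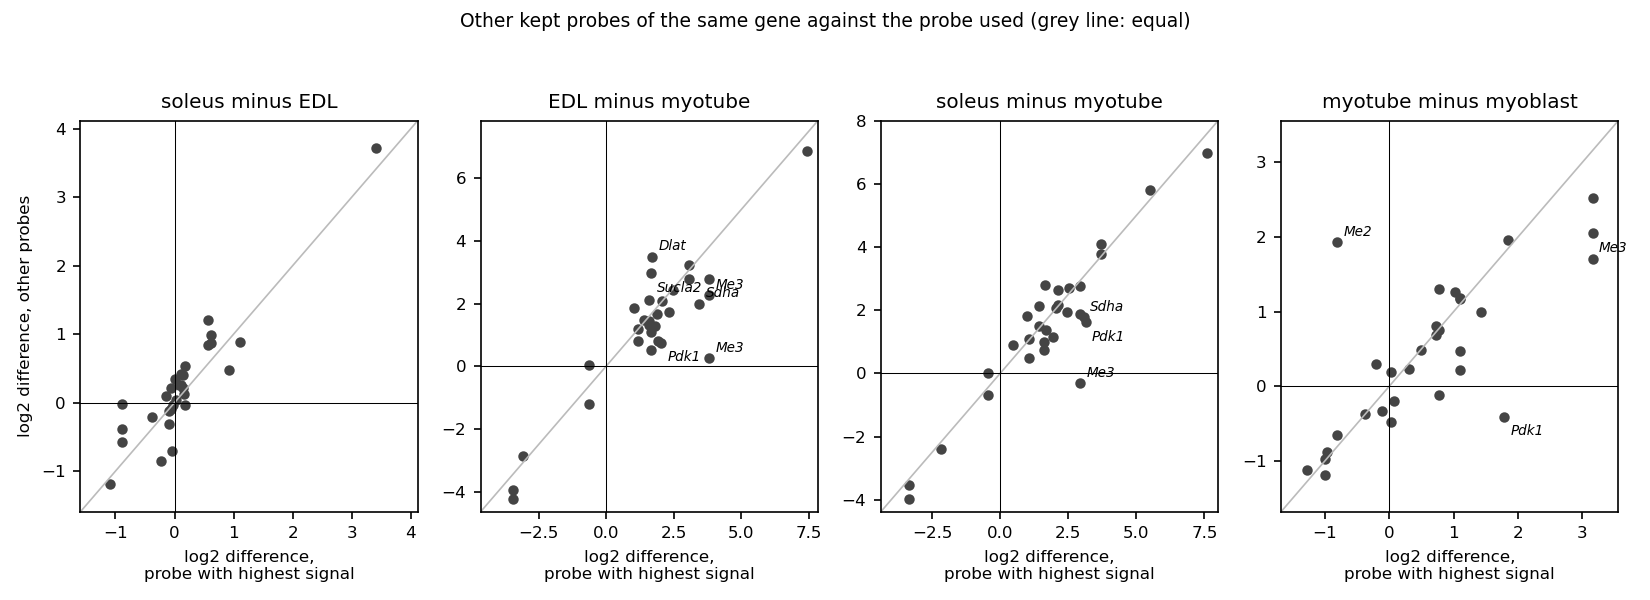
Log2 difference of each further kept probe (vertical axis) against that of the probe with the highest signal, which stands for the gene (horizontal axis), for the 22 genes with several kept probes in 4 comparisons; the grey line marks equal values. Most points follow the line, and Me2 at 1.94 against -0.81 and Pdk1 at -0.41 against 1.79 leave it in myotube minus myoblast.

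Beyond the 38 genes, 57 of 62 further genes of these pathways were tested. Of 13 pyruvate and TCA genes, 8 were called higher and 1 lower in EDL minus myotube, and 9 higher and 0 lower in soleus minus myotube. With spike-in scaling these were 6 higher and 4 lower in EDL minus myotube and 4 and 4 in soleus minus myotube. Among all genes tested, 28.4% were called higher and 19.6% lower in EDL minus myotube and 26.1% and 19.3% in soleus minus myotube, or 13.5% and 41.8%, and 11.8% and 49.0%, with spike-in scaling. The kinase gene Pdk2 was higher in EDL than in myotubes by 3.62 (limma adjusted p = 3.6e-09), and Pdk4, the kinase that fasting induces, was higher in soleus than in EDL by 2.17 (1.5e-07) and in soleus than in myotubes by 5.22 (2.8e-11). Mpc2, a subunit of the mitochondrial pyruvate carrier, was higher in EDL than in myotubes by 2.98.

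Of 18 further branched-chain and propionate genes, 15 were called higher and 1 lower in EDL minus myotube, and 16 higher and 1 lower in soleus minus myotube. With spike-in scaling these were 6 higher and 1 lower in EDL minus myotube and 4 and 1 in soleus minus myotube. The 1 lower gene was in both Bcat1, the cytosolic transaminase, at -2.84 and -2.99, which was also lower in myotubes than in myoblasts (difference -5.38, adjusted p = 1.8e-09 by limma). Aldh6a1 and Mcee, of valine and propionate breakdown, were higher in EDL than in myotubes by 3.05 and 3.03. Of 11 ketone body and lipoate genes, 5 were called higher and 1 lower in each muscle minus myotube, or 2 higher and 2 lower for EDL and 2 and 3 for soleus with spike-in scaling. Acat1, the mitochondrial thiolase that splits acetoacetyl-CoA, was higher in EDL than in myotubes by 3.78.

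Of 15 further amino acid genes, 7 were called higher and 5 lower in EDL minus myotube, and 7 higher and 6 lower in soleus minus myotube. With spike-in scaling these were 5 higher and 6 lower in EDL minus myotube and 1 and 7 in soleus minus myotube. Psat1 of serine synthesis and Asns, asparagine synthetase, were lower in EDL than in myotubes (differences -6.68 and -5.32). Between the muscles, Gpt2, the mitochondrial alanine aminotransferase, was lower in soleus than in EDL (difference -2.80, limma adjusted p = 2.6e-07) and so was Glul, glutamine synthetase (-1.59), while Psat1 was higher (1.90). In myotube minus myoblast, of 13 pyruvate and TCA genes 4 were called higher and 2 lower, or 2 and 2 with spike-in scaling, where 19.3% and 16.2% of all genes were called, or 12.5% and 21.4%, with Pdp1, a phosphatase that reactivates pyruvate dehydrogenase, higher by 2.21 and Pck2, the mitochondrial phosphoenolpyruvate carboxykinase, lower (difference -2.44).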

How the data were processed

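RNA of 12 samples was hybridised to 1-colour Agilent mouse arrays. Per the file headers, the deposited signal intensity of each spot came from Agilent Feature Extraction 10.5.1.1, already background-subtracted and detrended; other deposited columns are flags (spot quality and control type). The authors' table of normalized intensity, whose method is not given in the sources used here, served as an alternative only; its scale is linear, column medians run from 123 to 283, and its centring stays unknown. Outlier spots (68 to 140 per array) and control spots were left out, spots of a probe averaged, and log2 intensity computed here was scaled by the 75th percentile, or by spike-in controls. A probe was kept (28617 of 41174) where every array of some group, 3 in all, had it well above background, and the probe with the highest mean stood for a gene. Names came through accessions or symbols in a RefSeq table (GRCm38.p6); 8058 probes kept the file's name.

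Differences were tested with limma 3.58.1 (R 4.3.3) on all 12 arrays with 4 group means, and p-values were adjusted by Benjamini-Hochberg over 18869 genes. The steps were tested on simulated data. Replicate numbers match slides, each holding 1 array of every group; slide 1 was scanned on another day. Array position goes with group on every slide, so they cannot be told apart. Same-numbered arrays deviated together in 18 of 18 pairs (correlations 0.23 to 0.66), so the numbers were taken to pair the arrays by slide. Whether the samples themselves were paired cannot be told, since each number is also a slide. Alternatives were background correction, normalization, probe filter and choice, block, slides and left-out arrays. Members and lists were chosen with earlier results of these data known. Values on every array are given for 15 members: in each comparison the 4 called with the largest difference, those called against the majority, and those whose probes disagree in sign with 1 of them called. Other pathway genes are named from up to 3 called per list and comparison with the largest difference. Within-array ratio intervals use the spread over all 4 groups.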

Additional observations from a re-analysis of the deposited data

Results flagged for a closer look

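The change from myotubes differed between soleus and EDL for 4 genes, as tested by the soleus minus EDL difference itself with limma over all genes. Bdh1 differed by 3.41 and Idh2 by 3.33, each higher in 3 of 3 soleus arrays than in any EDL array and called under both scalings. Pdk1 differed by 1.10, higher in 3 of 3 soleus arrays, and its call was lost with spike-in scaling. Me1 differed by -1.09, lower in 3 of 3 soleus arrays, and its call too was lost with spike-in scaling.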

How the results depend on the processing

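Values of the members are given here by setting, and the cause of a change was not tested unless stated. With the replicate number, which is the slide, as a replicate block in the fit, 0 of 152 member calls changed, the counts of members called in soleus minus EDL stayed at 3 higher and 1 lower, and the counts of other pathway genes called kept their values in all 4 comparisons. No member call changed either without the filter on dim probes, with the filter on all 12 arrays, or with only the groups compared in the fit. The filter on all 12 arrays keeps the same probe for every member, so only the adjusted p could change. Without the filter a difference could change only where a dropped probe was brighter. Spike-in scaling shifts every difference by the same amount and changes the spread among arrays. It gave 0 members lower in soleus minus EDL with a median of -0.20. In EDL minus myotube it gave 16 higher and 5 lower (median 0.94), with 19 higher and 13 lower among the other pathway genes. In soleus minus myotube it gave 16 and 5 (0.77), with 11 and 15 among the others. In myotube minus myoblast it gave 4 and 5 (-0.18), with 7 higher among the others. Normexp gave 2 members lower in soleus minus EDL (median -0.36). In EDL minus myotube it gave a median of 1.89 and 4 other genes lower. In soleus minus myotube it gave 1 member and 3 other genes lower (1.57). In myotube minus myoblast it gave 1 member and 4 other genes lower (0.32). Normexp took the call from 7 members in soleus minus myotube: Pdhb (0.98), Pdhx (0.49), Dld (0.64), Pdk3 (-0.89), Dlst (1.10), Sucla2 (0.98) and Suclg1 (0.99). In EDL minus myotube it took that of Pdhx (0.96). Quantile normalization took the call from 5 members in EDL minus myotube and 4 in soleus minus myotube. The authors' values took it from 4 members in each of these comparisons. Quantile normalization gave medians of 0.026, 1.60, 1.61 and 0.12 in the 4 comparisons in the order above, and the authors' values gave 0.027 in soleus minus EDL, 1.62 in EDL minus myotube and 1.60 in soleus minus myotube. Within single slides the median was 0.020 (slide 1) and 0.028 (slide 3) in soleus minus EDL, 2.02 (slide 1) in EDL minus myotube, 2.05 (slide 1) in soleus minus myotube and 0.27 (slide 2) in myotube minus myoblast. Spike-in scaling turned the sign in soleus minus EDL (Pdha1 -0.18, Pdhb -0.17, Ogdh -0.11, Suclg2 -0.050, Sdhc -0.084, Idh1 -0.19, Me2 -0.091, Got2 -0.11, Bcat2 -0.021, Bckdha -0.047, Bckdhb -0.029 and Dbt -0.082), in EDL minus myotube (Pcx -1.02 and Glud1 -0.43), in soleus minus myotube (Pdhx -0.22, Dld -0.15, Me1 -0.74 and Glud1 -0.64) and in myotube minus myoblast (Dlat -0.066, Dlst -0.34, Sdhc -0.13, Fh1 -0.36, Me1 -0.30 and Dbt -0.23). Quantile normalization turned the sign in soleus minus EDL (Dlat 0.0095, Pdhx 0.0058, Idh3b 0.0078, Mdh2 0.0094 and Glud1 0.029), in EDL minus myotube (Pcx -0.13) and in myotube minus myoblast (Dlst -0.023 and Fh1 -0.079). Normexp background correction turned the sign in soleus minus EDL (Pdha1 -0.32, Pdhb -0.37, Ogdh -0.23, Suclg2 -0.047, Sdhb -0.12, Sdhc -0.32, Got2 -0.36, Bckdha -0.30, Bckdhb -0.15 and Dbt -0.073), in EDL minus myotube (Idh1 0.11 and Pcx -0.062), in soleus minus myotube (Idh1 0.39) and in myotube minus myoblast (Cs 0.054, Sdhd 0.11, Got1 0.085 and Dbt -0.54). The authors' normalized values turned the sign in soleus minus EDL (Idh3g 0.0072 and Glud1 0.035), in EDL minus myotube (Pcx -0.10) and in myotube minus myoblast (Fh1 -0.027). The mean over probes turned the sign in soleus minus EDL (Dlst 0.022) and in myotube minus myoblast (Dlst -0.090, Sdha 0.051, Me1 -0.066 and Me2 0.16). Leaving out arrays turned the sign of members that were not called, with these ranges over such fits: soleus minus EDL (Pdhx -0.11 to 0.051, Dlst -0.17 to 0.13, Idh1 -0.17 to 0.17, Sdhd -0.17 to 0.0039, Glud1 -0.065 to 0.026, Pdhb -0.022 to 0.079, Mdh2 -0.10 to 0.041, Me2 -0.0011 to 0.22, Pdha1 -0.075 to 0.10, Idh3b -0.043 to 0.012, Idh3g -0.12 to 0.014, Ogdh -0.030 to 0.20 and Dlat -0.10 to 0.0016), EDL minus myotube (Pcx -0.039 to 0.072 and Idh1 -0.22 to 0.13), soleus minus myotube (Idh1 -0.22 to 0.14), myotube minus myoblast (Dlst -0.031 to 0.15, Fh1 -0.061 to 0.083, Sdhd -0.10 to 0.071 and Me1 -0.049 to 0.17). Fits that leave out arrays gave 3 to 4 members higher and 1 to 2 lower in soleus minus EDL, 31 to 32 higher in EDL minus myotube, 30 to 31 higher in soleus minus myotube, and 8 to 9 higher and 1 to 3 lower in myotube minus myoblast, with medians of 1.95 to 2.03 in EDL minus myotube and 1.98 to 2.05 in soleus minus myotube. Me3 was called in soleus minus EDL (-1.02) without replicate 2 of every group, which is 1 whole slide. Calls that depended on 1 library were Pdk3 in soleus minus EDL (1.30, called without soleus replicate 2), Idh2 in myotube minus myoblast (-0.9997, not called without myoblast replicate 1) and Pdha1 there (0.92, not called without myotube replicate 1), and Pdhx, Pdhb and Oxct1 lay so near the threshold that leaving out arrays moved them across it. Signals close to background limit Pdk3 in muscle, Me3 in myoblasts and Bckdhb in both cultures: normexp gave -0.89 for Pdk3 in soleus minus myotube and 1.26 for Me3 in myotube minus myoblast, neither called.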

Other observations

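All genes given here but Slc16a1 were named after their values were seen. Bckdk, the kinase that switches the complex off, and Ppm1k, the phosphatase that switches it on, were both higher in EDL than in myotubes, by 2.64 (limma adjusted p = 7.2e-10) and 2.68 (2.9e-10), and both stayed called with spike-in scaling (1.61 and 1.65). Ppm1k was also higher in myotubes than in myoblasts, by 1.85 (6.4e-09). Prodh, which starts proline breakdown, was higher in EDL than in myotubes by 4.31 (7.2e-09) and lower in myotubes than in myoblasts (difference -1.92, 5.4e-06). Phgdh, the first enzyme of serine synthesis, was lower in EDL than in myotubes (difference -5.16, 3.1e-10) and in soleus than in myotubes (-4.24, 1.3e-09). Slc16a1, a carrier of lactate, pyruvate and ketone bodies, was higher in soleus than in EDL by 1.29 (4.3e-05), a call lost with spike-in scaling (1.09).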
